A study of Mus musculus with 18 samples.

Results

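The genes described here are 10 mouse genes of endoplasmic reticulum (ER) stress and ER protein folding: Atf4, Ddit3, Xbp1, Hspa5, Hsp90b1, Calr, Canx, Pdia3, Pdia4 and Herpud1. Every probe set whose platform annotation gives 1 of these symbols and no other was taken, which made 23 probe sets of 22690 on the array. Of the 23, 17 probe sets of 8 genes were bright enough to be tested, among 16565 tested probe sets in all. RNA came from motor neurons cut by laser from toluidine blue stained lumbar spinal cord sections of 10 µm, 1000 cells per animal, and each of 18 mice had its own one-colour array. The groups were G93A mice at 60, 90 and 120 days and their non-transgenic littermates, called controls, at 60, 90 and 120 days, with 3 animals in each. As background, G93A mice carry a mutant human SOD1 transgene and are a model of amyotrophic lateral sclerosis; the labels name neither the transgene's promoter or copy number nor the strain or sex of the animals. A captured section of a cell body can carry RNA of cells that touch it, and fewer such cells cannot be told apart from less RNA per cell.

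Proteins that enter the ER are folded there by chaperones, oxidized by protein disulfide isomerases and inspected through their sugar chains by lectin chaperones. When unfolded proteins accumulate, the sensors PERK, IRE1 and ATF6 start the unfolded protein response: PERK phosphorylates eIF2α, which slows translation and favours the making of ATF4, IRE1 splices Xbp1 mRNA into the form that encodes an active factor, and ATF6 is cut to release another. ATF4 drives genes of amino acid supply and, under lasting stress, Ddit3 (CHOP), while XBP1 and ATF6 drive chaperones and the degradation machinery. Large motor neurons make much membrane and secreted protein, and ER stress has long been studied in mutant SOD1 mice. The array measures mRNA level, not splicing of Xbp1 or translation of Atf4.

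The promoters of the chaperone members show the sequence element through which ATF6 and XBP1 act, which is why they are printed here. The ER stress response element (CCAAT and CCACG with 9 bases between them, searched on both strands) was found in the RefSeq window of 250 bases before to 50 after the gene start of Hspa5, Hsp90b1, Calr and Canx, 4 of the 10 members, against 0.119% of 32851 mouse promoters (39 of them). Hsp90b1 held it in both orientations. The related element ERSE-II (ATTGG and CCACG with 1 base between them) was found in Herpud1 and in 0.0365% of promoters, and the ATF4 element searched (TTGCATCA) in Herpud1 and in 0.895%. No match overlapped another. The stretches below are on the GRCm38.p6 assembly, read 5′ to 3′ on the gene's own strand and upstream of the start. Capitals mark the CCAAT and CCACG blocks of the ER stress response element, or CGTGG and ATTGG where it is reversed. In Herpud1 they mark the ATTGG and CCACG blocks of ERSE-II, in forward orientation, and TTGCATCA.
Hspa5, chr2:34771840-34772089, plus strand: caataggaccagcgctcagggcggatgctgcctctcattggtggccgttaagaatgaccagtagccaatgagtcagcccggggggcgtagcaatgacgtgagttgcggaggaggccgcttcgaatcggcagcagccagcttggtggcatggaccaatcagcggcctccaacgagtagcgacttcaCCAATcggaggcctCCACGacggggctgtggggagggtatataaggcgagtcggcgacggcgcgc
Hsp90b1, chr10:86705518-86705671, minus strand: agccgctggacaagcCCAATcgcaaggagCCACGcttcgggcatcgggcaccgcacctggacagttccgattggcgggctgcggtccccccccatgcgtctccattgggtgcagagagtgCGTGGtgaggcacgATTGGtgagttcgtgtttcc
Calr, chr8:84847060-84847108, minus strand: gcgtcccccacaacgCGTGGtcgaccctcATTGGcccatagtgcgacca
Canx, chr11:50325785-50325833, minus strand: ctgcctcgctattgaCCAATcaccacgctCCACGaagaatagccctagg
Herpud1, chr8:94386302-94386402, plus strand: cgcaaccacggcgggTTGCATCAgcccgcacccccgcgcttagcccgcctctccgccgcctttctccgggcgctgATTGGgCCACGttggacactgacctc
A match is a string of letters, not a shown binding site. The members were chosen as ER stress and folding genes, so the shares are a description and no test of enrichment. Among the 28 further ATF6 and XBP1 target genes with a promoter in the table, Creld2, Dnajc3, Pdia6 and Syvn1 held the ER stress response element, and among 26 ATF4 target genes 6 held TTGCATCA, namely Aars, Atf3, Chac1, Nupr1, Slc7a11 and Vldlr.

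The arrays showed signal of several motor neuron markers, and differed in ways that may bear on the values below. Of 11 motor neuron markers on the array 9 were tested, with neurofilament light chain (Nefl) at signals of 6044.4 to 26845.7. The motor neuron factor Isl2 was above the array median on all 18 arrays, as were Nefl, Nefm, Nefh and Prph. Ret and Agrn were above it on 13 arrays, Isl1 on 9 and Mnx1 on 8. The transporters Slc5a7 and Slc18a3 were too dim to test. The summed signal of the motor neuron markers was 8998.2 to 16615.2 in G93A animals at 120 days, against 14646.3 to 28872.8 in controls. At 60 days it was 7835.3 to 19366.9 in G93A animals, against 18986.7 to 28322.3 in controls. At 90 days it was 14592.3 to 16495.2 in G93A animals, against 13157 to 29695.9 in controls. Such a sum weighs its brightest gene most: Nefl for motor neurons, Mbp (3113.2 to 18709.4) for oligodendrocytes and Csf1r (634.8 to 13708.2) for microglia. The median signal over the motor neuron markers differed less between genotypes. It was 163 in G93A animals and 156 in controls at 60 days. At 90 days it was 174.3 in G93A animals and 174.6 in controls, and at 120 days 130.8 and 147.3. The summed signal of 9 oligodendrocyte markers was 14783.9 to 21037.3 in G93A animals and 15024.4 to 22896.5 in controls at 120 days. It was 8515.3 to 11175.3 in G93A animals and 5423 to 8220 in controls at 60 days. The median signal over those markers moved less, from 328.9 at 60 days to 356.8 at 120 days in G93A animals and from 193.3 to 279.9 in controls. The summed signal of 12 microglial markers was 10516.2 to 17080.6 in G93A animals at 120 days, against 3636.5 to 6153.9 in controls, and all 12 lay above 0 in that comparison with a median log2 difference of 1.47. The same sum was 2325.8 to 3118.6 in G93A animals and 1965.5 to 4000.2 in controls at 60 days. For the 90-day arrays it was 1837.1 to 3948.6 in G93A animals and 1386.6 to 2224.5 in controls. The log2 ratio of 3′ to 5′ Gapdh signal, which grows as RNA shortens, averaged 4.14 in G93A animals and 3.36 in controls at 60 days, 4.39 in G93A animals and 3.25 in controls of 90 days, and 4.94 in G93A animals and 4.48 in controls of 120 days. The added hybridization controls averaged a log2 signal of 9.47 in G93A arrays and 11.15 in control arrays at 60 days. At 90 days they averaged 9.09 in G93A arrays and 9.83 in control arrays, and at 120 days 11.6 in both. Within a group, pairs of arrays correlated at 0.641 to 0.838 over tested probe sets. The part of these measures in the results was not tested, beyond the fits that hold the Gapdh ratio or the hybridization controls fixed. No fit held a marker sum fixed.

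Not one of the 17 tested probe sets of the ER genes passed the threshold between genotypes. A probe set was called changed at an adjusted p below 0.05 in limma, with p-values adjusted over all 16565 tested probe sets. At 60 days 0 of 17 were called, against 0.688% of all tested probe sets, and 2 had an unadjusted p below 0.05, against 12.6%. At 90 days 0 of 17 were called, against 0%, and 1 had an unadjusted p below 0.05, against 4.56%. At 120 days 0 of 17 were called, against 0.0241%, and 3 had an unadjusted p below 0.05, against 12.2%. Over the mean of the 3 ages 0 of 17 were called, against 0.0121%, and 0 had an unadjusted p below 0.05, against 7.74%. G93A and control signals did not overlap for 4, 2 and 3 of the 17 probe sets at 60, 90 and 120 days, against 18.5%, 11.5% and 16.1% of all tested probe sets. The members' counts were close to those shares, or 0. The median log2 difference, G93A minus control, of the 17, in order of age, was 0.29, 0.01 and 0.02, against -0.07, -0.02 and 0.09 over all tested probe sets. Within 1 age the standard errors of the 17 ran from 0.25 to 0.84, with a median of 0.694 over all tested probe sets.

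**Figure D1:**
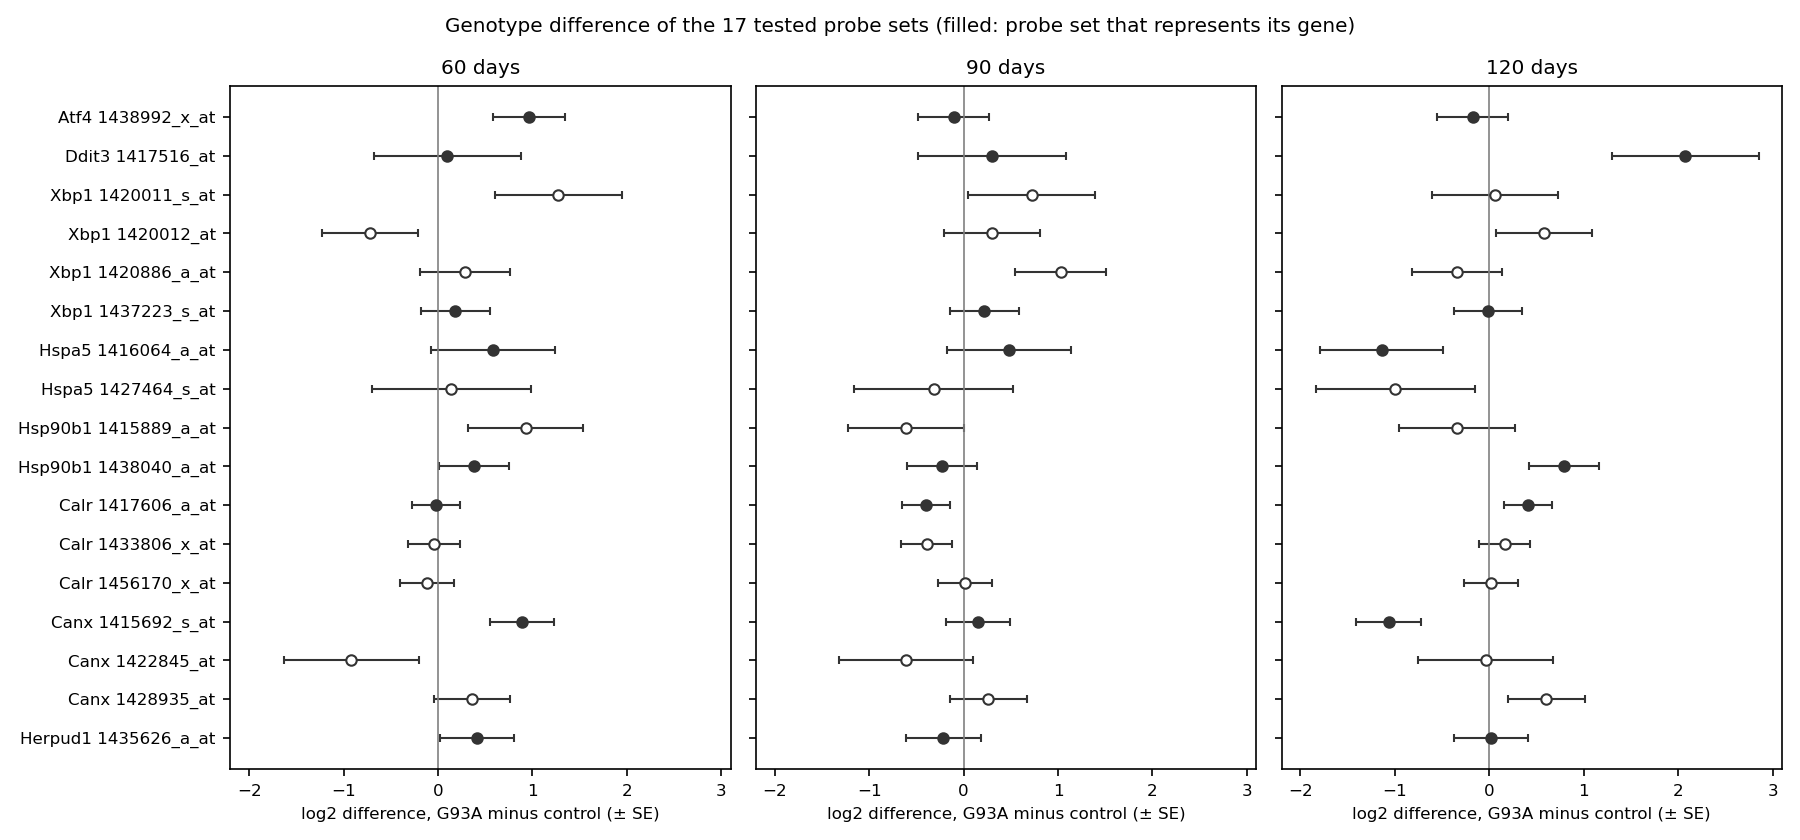
Log2 difference, G93A minus control, of the 17 tested probe sets at 60, 90 and 120 days (x axis), with bars of 1 standard error and the probe set that represents its gene filled. The differences spread on both sides of 0, from -0.92 to 1.28 at 60 days and from -1.14 to 2.08 at 120 days, and none passed the threshold.

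Atf4, the translation-controlled factor of the PERK branch, was read by 1 tested probe set, 1438992_x_at, whose suffix marks probes that may also bind other transcripts. Its signals at 60 days were 747.6, 2075.2 and 1711.9 in G93A animals, against 699.8, 952 and 537.4 in controls. At 90 days they were 868.3, 1976.5 and 1199.6 in G93A animals, against 1425.3, 1055.4 and 1701.7 in controls. At 120 days they were 407.9, 386.3 and 595.8 in G93A animals, against 458.1, 768.3 and 383.4 in controls. At 60 days 2 G93A animals lay above every control and the third lay within the control range, while at 90 and 120 days the genotypes overlapped. The log2 difference, given with its standard error throughout, was 0.96 ± 0.38 at 60 days (adjusted p = 0.265), -0.10 ± 0.38 at 90 days and -0.17 ± 0.38 at 120 days. The other Atf4 probe sets were not tested: 1448135_at ran from 11.1 to 47.7 and 1439258_at from 1.3 to 45.8 over the 18 arrays.

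Ddit3 encodes CHOP, the factor that links lasting ER stress to cell death, and had the largest genotype difference of the members at 120 days. Its probe set 1417516_at read 523.4, 312.6 and 553.1 in G93A animals at 120 days, against 16.6, 202.3 and 358.9 in controls. The highest control lay above the lowest G93A animal, and control animal 1 was far below the other controls. The array of that animal had the lowest median signal of all 18 arrays, 37, and the most values under 1, 255. The log2 difference was 2.08 ± 0.78, a 4.22-fold difference of geometric means (unadjusted p = 0.0138, adjusted p = 0.281). It was 0.74 without control animal 1 and 2.95 without control animal 3. At 60 days the signals were 248.3, 309.8 and 32.4 in G93A animals, against 147.1, 177.9 and 77.3 in controls, and at 90 days 193, 209.6 and 248.4, against 196.4, 130 and 210.6. Those differences were 0.10 ± 0.78 and 0.30 ± 0.78. The microglial sum was also highest in the 3 G93A arrays of 120 days, and its part in this difference was not tested.

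Xbp1, the factor that IRE1 activates by splicing, was read by 4 tested probe sets that did not move together. The brightest, 1437223_s_at, read 1289.7, 1197.5 and 727.3 in G93A animals at 60 days, against 961.7, 886.2 and 900.6 in controls, with a log2 difference of 0.18 ± 0.36. Its difference was 0.22 ± 0.36 at 90 days and -0.01 ± 0.36 at 120 days. Probe set 1420886_a_at did not overlap between genotypes at 90 days, with 199.7, 348.2 and 221.3 in G93A animals against 121.6, 180.7 and 82.8 in controls, a log2 difference of 1.03 ± 0.48 (unadjusted p = 0.0426, adjusted p = 0.997). Probe set 1420011_s_at differed by 1.28 ± 0.67 at 60 days, while 1420012_at differed by -0.72 ± 0.51 there, with 97.8, 159.7 and 124.5 in G93A animals against 226, 176.8 and 215.9 in controls. At 120 days 1420012_at again did not overlap but lay the other way, with 193.6, 154.5 and 177 in G93A animals against 102.8, 140.3 and 111 in controls (0.58 ± 0.51, adjusted p = 0.691). Over the 18 arrays the log2 levels of pairs of Xbp1 probe sets correlated at -0.42 to 0.74, the highest between 1437223_s_at and 1420886_a_at.

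Hspa5 encodes BiP, the main HSP70 chaperone of the ER lumen and the regulator that holds the stress sensors inactive. Its brighter probe set, 1416064_a_at, read 152.3, 99.1 and 72.5 in G93A animals at 60 days, against 53.5, 95.9 and 63 in controls. At 90 days it read 167.4, 191.8 and 214.8 in G93A animals, against 121.9, 214.6 and 97.1 in controls. At 120 days it read 60.8, 36.3 and 112 in G93A animals, against 620.3, 105.2 and 40.6 in controls. The genotypes overlapped at all 3 ages, and control animal 1 of 120 days was the highest of the 18 arrays. It is the array of lowest median signal named above for Ddit3. The log2 differences were 0.59 ± 0.66, 0.48 ± 0.66 and -1.14 ± 0.66 at 60, 90 and 120 days (adjusted p = 0.504 at 120 days). Without control animal 1 the difference at 120 days was -0.06, and without control animal 3 it was -2.03. The dimmer probe set 1427464_s_at, above the array median on 7 arrays, differed by 0.14 ± 0.84 and -0.32 ± 0.84 at the first 2 ages, read 38.8, 31.1 and 6.1 in G93A animals against 118.1, 17.7 and 28 in controls at 120 days, and correlated with the first at 0.32 over the 18 arrays.

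Hsp90b1 encodes GRP94, the HSP90 chaperone of the ER. Its probe set 1438040_a_at read 114.7, 217.2 and 242.7 in G93A animals at 120 days, against 75, 122.4 and 128.2 in controls. Of the G93A animals 2 lay above every control and the third within the control range, and the log2 difference was 0.79 ± 0.37 (unadjusted p = 0.0442, adjusted p = 0.394). At 60 days it read 388.3, 314.7 and 379.3 in G93A animals, against 363.7, 177.3 and 326.3 in controls, and at 90 days 243.7, 441.8 and 324.6, against 373.7, 517.9 and 290.3. The differences there were 0.38 ± 0.37 and -0.23 ± 0.37. The dimmer probe set 1415889_a_at did not overlap at 60 days, with 157.2, 99.8 and 149.4 in G93A animals against 70.8, 53.8 and 89.4 in controls (0.93 ± 0.61, adjusted p = 0.562), and went the other way from the first at 120 days (-0.34 ± 0.61).

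Calr encodes calreticulin, the soluble lectin chaperone that also buffers ER calcium. Its brightest probe set, 1417606_a_at, read 1550.7, 1311.4 and 1726.3 in G93A animals at 120 days, against 1087.3, 1123.5 and 1237.7 in controls, without overlap. The log2 difference was 0.41 ± 0.25 (adjusted p = 0.546). At 60 days the probe set read 1462.3, 1312.9 and 1133.2 in G93A animals against 1368.3, 1209.8 and 1360.2 in controls, and at 90 days 701.5, 1023.7 and 872.3 against 956.6, 1160 and 1284.4. These differences were -0.02 ± 0.25 and -0.40 ± 0.25. Both other probe sets, 1433806_x_at and 1456170_x_at, carry the cross-hybridization suffix and differed by -0.39 to 0.16 over the 3 ages. On the log2 scale the 6 group SDs of 1417606_a_at were 0.10 to 0.27, and their maximum was the lowest among the 8 tested genes.

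Canx encodes calnexin, the membrane-bound partner of calreticulin. Its brightest probe set, 1415692_s_at, showed opposite genotype differences at the first and last ages. At 60 days it read 1008, 527.4 and 466.9 in G93A animals, against 449.8, 268.8 and 324 in controls, so every G93A animal lay above every control. At 90 days it read 643.6, 1041.4 and 747.7 in G93A animals, against 752.1, 1057.3 and 460.6 in controls, and the genotypes overlapped. At 120 days it read 492.3, 866.5 and 589.6 in G93A animals, against 1384.4, 1295.3 and 1287.8 in controls, so every G93A animal lay below every control. The log2 differences were 0.89 ± 0.34 (adjusted p = 0.252), 0.15 ± 0.34 and -1.07 ± 0.34 (adjusted p = 0.210). A pattern without overlap at 60 and 120 days in opposite directions was held by 413 tested probe sets, 2.49% of all, and by 2 of the 17 members' probe sets in opposite senses, the second being Xbp1 1420012_at. The F test of whether the genotype difference varied with age gave an adjusted p of 0.108 for Canx, and 0 of the 17 member probe sets were called by it, against 0.417% of all. A single contrast of the genotype difference at 120 days minus that at 60 days, added after the data had been seen, gave -1.95 ± 0.48 (adjusted p = 0.0358), and 1 of 17 member probe sets was called by it, against 2.02% of all.

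The other Canx probe sets did not show that pattern. Probe set 1428935_at, above the array median on all 18 arrays, differed by 0.36 ± 0.41, 0.26 ± 0.41 and 0.61 ± 0.41 at 60, 90 and 120 days, and 1422845_at by -0.92 ± 0.71, -0.61 ± 0.71 and -0.04 ± 0.71. Over the 18 arrays they correlated with 1415692_s_at at -0.23 and -0.51. With the gene taken as the mean of its 3 tested probe sets, the single contrast came to -0.28 (adjusted p = 0.807). It also missed the threshold without the intensity trend (-1.95, adjusted p = 0.145), after quantile normalization (-1.60, adjusted p = 0.0744), with hybridization controls as a covariate (-1.37, adjusted p = 0.238), and without any 1 of 9 arrays: G93A animals 1 and 2 and control animals 2 and 3 of 60 days, G93A animal 3 of 90 days, and G93A animals 1 and 3 and control animals 1 and 2 of 120 days. Without each of those 9 the contrast lay between -2.08 and -1.61.

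**Figure D2:**
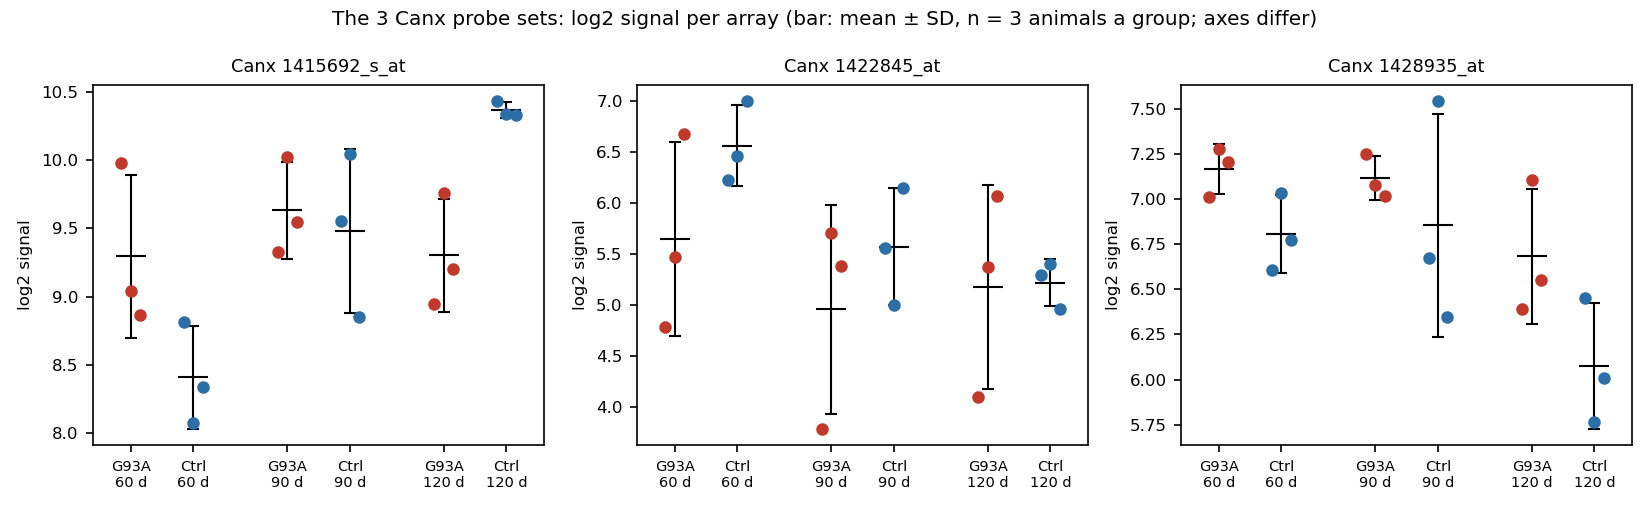
Log2 signal of the 3 tested Canx probe sets in each animal, by genotype (Ctrl is control) and age in days (d), with the mean and SD of 3 animals; the y axes differ. Only 1415692_s_at separates the genotypes in opposite directions at 60 and 120 days, and its 3 controls of 120 days sit at a mean log2 signal of 10.37.

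The disulfide isomerase Pdia3 (ERp57), which works with calreticulin and calnexin, was too dim to test, with signals of 2.6 to 88.5 on 1423423_at over the 18 arrays. Pdia4 (ERp72), another disulfide isomerase, was too dim as well, with 4.8 to 87.5 on 1416497_at and 4.5 to 75.4 on 1450620_at. Such signals do not show that the mRNAs were absent. Herpud1, a membrane protein of the ER degradation complex, was read by 1435626_a_at, with 192.4, 162.2 and 193.8 in G93A animals at 60 days against 143.9, 141.2 and 125.6 in controls. Its genotypes did not overlap there, at a log2 difference of 0.41 ± 0.40 (adjusted p = 0.718), and overlapped at 90 days (-0.22 ± 0.40) and 120 days (0.02 ± 0.40). The second Herpud1 probe set, 1448185_at, ran from 4 to 54.5 and was not tested.

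**Figure D3:**
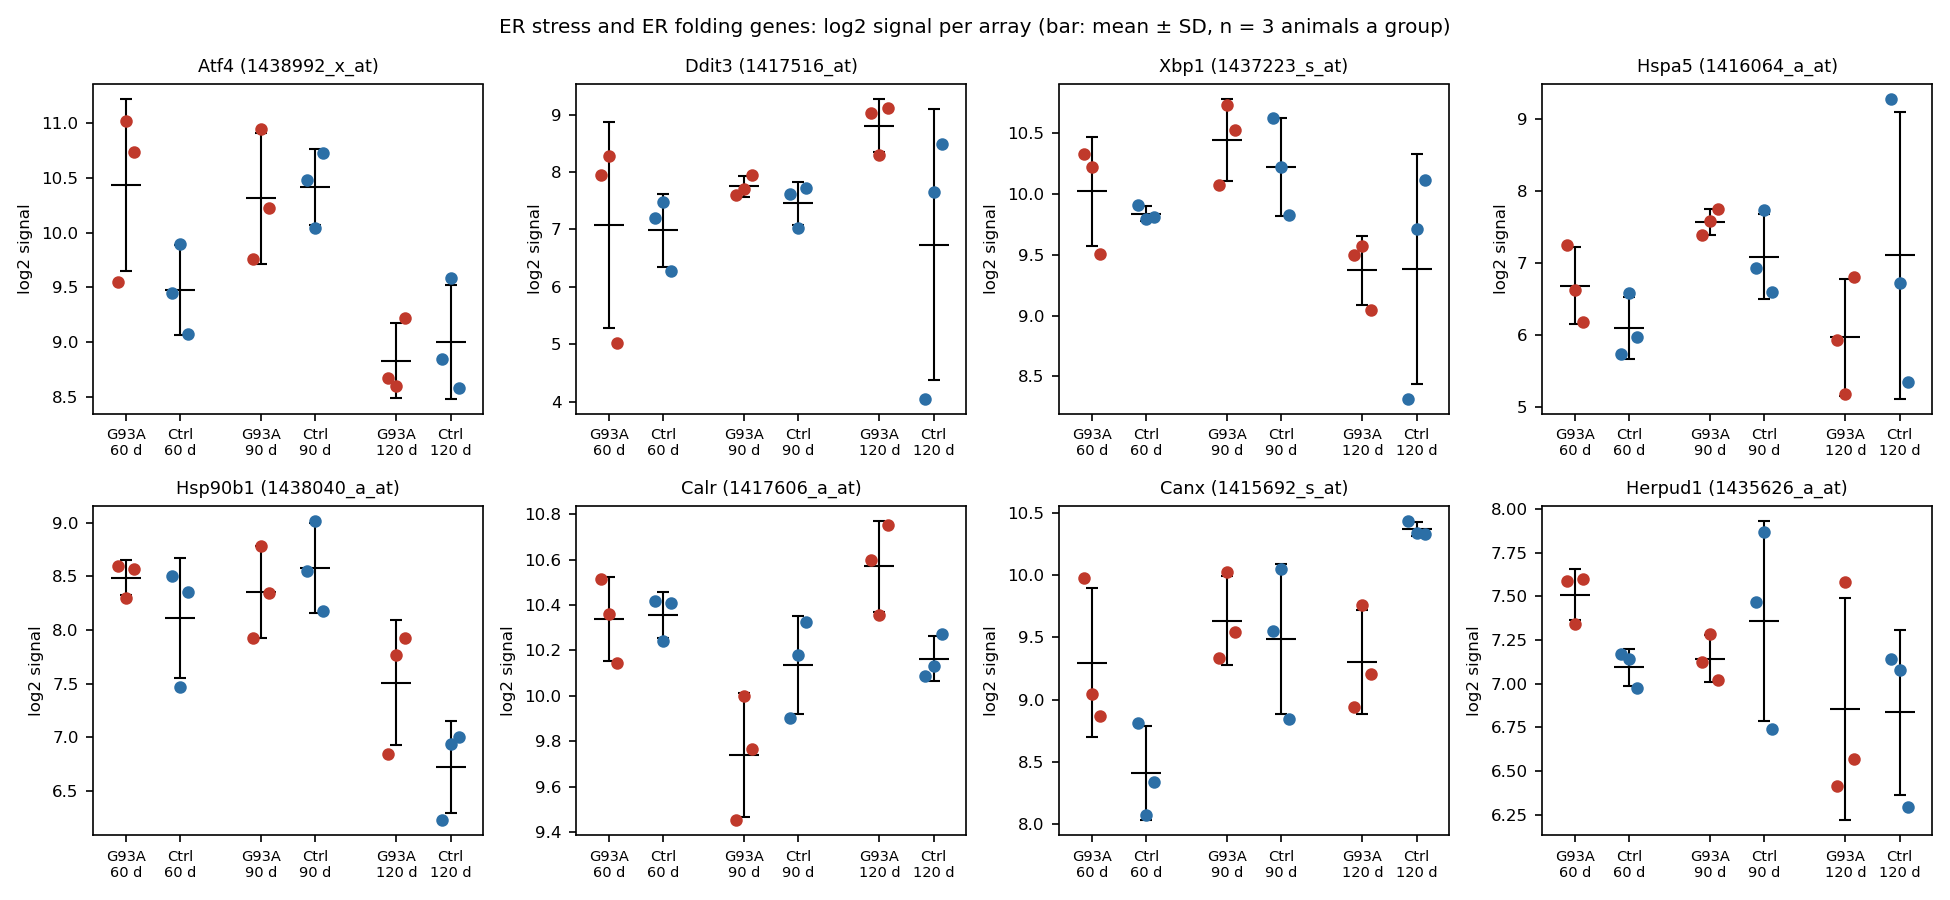
Log2 signal of the probe set that represents each of the 8 tested genes, in each animal (points), by genotype (Ctrl is control) and age in days (d), with the mean and SD of 3 animals; the y axes differ. The Atf4 points of 120 days sit below most of those of 60 and 90 days in both genotypes. For Ddit3 and Hspa5 at 120 days the same control array, that of animal 1, lies far from the other controls.

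More of these probe sets were called between ages than between genotypes, and the same held over all tested probe sets in most age comparisons. In G93A animals 4 of 17 were called between 120 and 90 days, against 7.65% of all tested probe sets. Of the 4, 2 were higher, both of Calr, against 3.34% of all, and 2 lower, against 4.3%. With 1 probe set per gene, 1 of 8 genes was called higher and 1 lower there, against 7.6% of all genes in either direction. In G93A animals 1 probe set was called between 120 and 60 days, against 2%. Between 90 and 60 days 0 were called in them, against 0%, with 1 of 17 at an unadjusted p below 0.05, against 5.49%. In controls 1 was called between 120 and 90 days, against 1.04%, 2 between 120 and 60 days, against 6.71%, and 0 between 90 and 60 days, against 1.61%, with 4 of 17 at an unadjusted p below 0.05, against 14.8%. Comparisons that share a group of animals are not independent, and a call in 1 genotype and not in the other does not show that the genotypes differ. Arrays of 120 days also had the highest mean Gapdh 3′ to 5′ ratios and higher oligodendrocyte sums than those of 60 days in both genotypes, given above. In G93A arrays the log2 hybridization controls ran from 8.96 to 9.325 at 90 days and from 11.338 to 11.986 at 120 days. The microglial sum of G93A arrays was 1837.1 to 3948.6 at 90 days and 10516.2 to 17080.6 at 120 days. The part of these measures in the age differences was not tested, beyond the fits that hold the Gapdh ratio or the hybridization controls fixed.

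Atf4 fell with age in G93A animals on its 1 tested probe set. The log2 difference between 120 and 90 days was -1.48 ± 0.38 (adjusted p = 0.0161) and that between 120 and 60 days -1.61 ± 0.38 (adjusted p = 0.0288), without overlap in either. In controls the difference between 120 and 90 days was -1.42 ± 0.38 and missed the threshold (adjusted p = 0.0655), although there too the ages did not overlap. The call between 120 and 90 days in G93A animals was lost without animal 2 or 3 of 90 days or animal 1 or 2 of 120 days, at differences of -1.17, -1.53, -1.41 and -1.37, and that between 120 and 60 days without animal 2 or 3 of 60 days or animal 1 or 2 of 120 days, at -1.32, -1.45, -1.53 and -1.49. With the Gapdh ratio in the model the difference between 120 and 60 days was -1.13 (adjusted p = 0.144).

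Xbp1 fell between 120 and 90 days in G93A animals on 1420886_a_at, which read 40.9, 98.2 and 69.4 at 120 days against 199.7, 348.2 and 221.3 at 90 days. The log2 difference was -1.93 ± 0.48, a 3.81-fold lower level (adjusted p = 0.0138), and -0.56 ± 0.48 in controls (adjusted p = 0.656). The difference between genotypes in this change was -1.37 ± 0.68 (adjusted p = 0.507). The brightest Xbp1 probe set differed by -1.07 ± 0.36 in G93A animals (adjusted p = 0.0727) and by -0.84 ± 0.36 in controls (adjusted p = 0.302). The other Xbp1 probe sets were not called: 1420012_at differed by 0.54 ± 0.51 in G93A animals and 0.26 ± 0.51 in controls, and 1420011_s_at by -0.42 ± 0.67 in G93A animals and 0.24 ± 0.67 in controls. The call on 1420886_a_at was lost with hybridization controls as a covariate (-1.06, adjusted p = 0.591) and without G93A animal 2 of 90 days (-1.69) or animal 1 of 120 days (-1.59).

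Hsp90b1 fell with age in controls on 1438040_a_at. The log2 difference between 120 and 90 days was -1.86 ± 0.37 (adjusted p = 0.0132) and that between 120 and 60 days -1.39 ± 0.37 (adjusted p = 0.026), without overlap in either. In G93A animals the same differences were -0.84 ± 0.37 (adjusted p = 0.176) and -0.98 ± 0.37 (adjusted p = 0.176), again without overlap, and the change of the genotype difference between those ages was 1.02 ± 0.52 for 120 against 90 days (adjusted p = 0.526). The first call was lost without control animal 1 of 90 days (-1.88, adjusted p = 0.0502), and the second without control animal 1 or 3 of 60 days or animal 1 of 120 days, at -1.19, -1.27 and -1.14. As the mean of both Hsp90b1 probe sets the differences were -1.48 (adjusted p = 0.124) and -0.68 (adjusted p = 0.32).

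Calr rose between 120 and 90 days in G93A animals on 2 of its probe sets. On 1417606_a_at the log2 difference was 0.83 ± 0.25 (adjusted p = 0.0452), and on 1456170_x_at, which read 710.9, 588.8 and 894.3 at 120 days against 271.1, 431 and 382.6 at 90 days, it was 1.02 ± 0.29 (adjusted p = 0.0279). In controls 1417606_a_at differed by 0.03 ± 0.25, while 1456170_x_at differed by 1.02 ± 0.29 (adjusted p = 0.0863), as much as in G93A animals. The call on 1417606_a_at was lost without any 1 of 10 arrays, at differences of 0.69 to 0.96 and adjusted p of 0.0509 to 0.215: G93A animal 2 and control animal 1 of 60 days, all 3 G93A animals and control animal 2 of 90 days, and all 3 G93A animals and control animal 2 of 120 days. That on 1456170_x_at was lost without G93A animal 1 or 3 of 90 days or animal 1 or 3 of 120 days, at 0.83, 1.08, 1.03 and 0.87.

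Canx rose with age in controls on 1415692_s_at. Its log2 difference between 120 and 60 days was 1.96 ± 0.34 (adjusted p = 0.0014), against 0.01 ± 0.34 in G93A animals. The call held without each of the 18 arrays in turn, at 1.79 to 2.16. It missed the threshold with the Gapdh ratio in the model (1.47, adjusted p = 0.0864). The probe sets 1428935_at and 1422845_at differed in the other direction in controls, by -0.73 ± 0.41 and -1.34 ± 0.71, so that the mean over the 3 probe sets differed by -0.04.

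Several age calls of members also depended on the settings of the fit. Without the intensity trend in the moderation, both Atf4 calls (adjusted p = 0.0841 and 0.133), both Calr calls (0.133 and 0.0967) and both Hsp90b1 calls (0.0918 and 0.0746) missed the threshold at the same differences, while those of Xbp1 and Canx passed. The Calr calls on 1417606_a_at and 1456170_x_at were also lost after median centring (0.63 and 0.83), with hybridization controls as a covariate (1.01 and 1.15) and with the Gapdh ratio (0.80 and 0.87), the first also with a pseudocount of 16 (adjusted p = 0.0554) and with no filter (adjusted p = 0.0597). For Hsp90b1 in controls, hybridization controls as a covariate ended the call between 120 and 90 days (-1.63, adjusted p = 0.0735), and median centring that between 120 and 60 days (-0.89, adjusted p = 0.150).

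The 8 tested genes did not vary in 1 common direction. Over the 28 pairs of representative probe sets, correlations of the deviations from the 6 group means over 18 arrays ran from -0.63 to 0.79 with a median of 0.09, against -0.001 over pairs of all genes, and 17 pairs lay above 0. The highest were Ddit3 with Xbp1 (0.79, Spearman's rho 0.54), Canx with Herpud1 (0.65, rho 0.66) and Hsp90b1 with Canx (0.63, rho 0.61), given as descriptions of arrays that share RNA quality. Control animal 1 of 120 days held the lowest signal of both Ddit3 (16.6) and Xbp1 (318.9), and its part in their correlation was not tested. Hspa5 and Hsp90b1, both chaperones of the ER lumen, correlated at r = -0.26 (Spearman's rho = -0.06, adjusted p = 0.458 and 0.812 in permutation tests of 100000 resamples, 3 pairs tested, two-sided), and at 0.08 without the 2 arrays farthest from the median of Hspa5. Atf4 and Ddit3 correlated at r = 0.07 (rho = 0.26, adjusted p = 0.798 and 0.513 in permutation tests), and at 0.22 without the 2 farthest arrays. Xbp1 and Hspa5 correlated at r = -0.63 (permutation p = 0.00761, adjusted p = 0.0228) but at rho = -0.24 (permutation p = 0.342, adjusted p = 0.513), and at r = 0.02 without the 2 farthest arrays, so that relation rested on those arrays. By level over the 18 arrays, which share the effects of age and RNA quality, the 5 genes most like Hspa5 of 10050 were Rcan2 (r = 0.90), Nars (0.90), Faim (0.89), Ube2e1 (0.89) and Chordc1 (0.88). Those most like Atf4 were Ndfip1 (0.86), Txnl1 (0.86), Psma5 (0.85), Wwp1 (0.84) and Pde4dip (0.84).

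The wider pathway was read through 5 lists of genes, each gene by 1 probe set, and compared with 10051 genes on the array. Of the 10051, 46.8% lay above 0 at 60 days, 49.9% at 90 days and 53.4% at 120 days in the difference of G93A minus control, with medians of -0.06, 0.00 and 0.07. Genes called between genotypes made up 0.647% at 60 days, 0% at 90 days and 0.0398% at 120 days. Comparisons of ages within a genotype called 7.6% between 120 and 90 days in G93A animals and 6.72% between 120 and 60 days in controls. Between genotypes, over all 5 lists 1 gene was called, Sec11c at 60 days. Some genes stand in more than 1 list, such as Derl1 and Syvn1. Centring each array on its median would move the median of all genes to 0.16, 0.15 and -0.25 at the 3 ages, so list medians are to be read against that of all genes.

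Sensors and signal carriers of the unfolded protein response had 18 tested genes, of which 11, 10 and 7 lay above 0 at 60, 90 and 120 days, with medians of 0.17, 0.01 and -0.17. Mbtps1, the site 1 protease that cuts ATF6, differed by 1.90 ± 0.85 at 60 days (adjusted p = 0.343) and by -1.62 ± 0.85 at 120 days (adjusted p = 0.453), and a second probe set of it had the opposite sign at both ages. Rtcb, the ligase that joins the spliced Xbp1 mRNA, differed by 1.49 ± 0.48 at 60 days (adjusted p = 0.156), with both its other probe sets of opposite sign. The kinase gene Eif2ak2 differed by -2.37 ± 0.90 at 60 days (adjusted p = 0.24), and the cell death genes Bcl2l11 and Bbc3 differed by 0.82 ± 0.42 and 1.40 ± 0.83 at 120 days (adjusted p = 0.445 and 0.521), both other probe sets of Bcl2l11 being of opposite sign.

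Targets of ATF4 had 31 tested genes, of which 14, 24 and 18 lay above 0 at 60, 90 and 120 days, with medians of -0.03, 0.31 and 0.40; the first was 0.02 after quantile normalization and 0.20 after centring. Atf3, a stress factor also induced in injured neurons, read 204.3, 111.4 and 145.4 in G93A animals at 120 days, against 6.3, 56.7 and 16.5 in controls. The genotypes did not overlap, at a log2 difference of 3.04 ± 0.86 (adjusted p = 0.154). Nupr1, a chromatin protein of the stress response, read 67.6, 156.3 and 178.5 in G93A animals against 1.8, 22.2 and 68.3 in controls (3.14 ± 1.23, adjusted p = 0.299). The microglial sum was higher in the same G93A arrays of 120 days, and its part in these differences was not tested. Slc3a2, a subunit of amino acid transporters, differed by 1.01 ± 0.35 at 120 days (adjusted p = 0.241), and Ddit4, an inhibitor of mTORC1, by -1.99 ± 0.76 (adjusted p = 0.287). At 60 days the pseudokinase genes Trib1 and Trib3 differed by -3.05 ± 0.87 and -2.01 ± 0.84 (adjusted p = 0.113 and 0.303).

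Targets of ATF6 and XBP1 had 33 tested genes, of which 21, 19 and 7 lay above 0 at 60, 90 and 120 days, with medians of 0.24, 0.17 and -0.44. At 120 days the share above 0 was 21.2%, against 53.4% of all genes. Of the 9 tested motor neuron markers 3 lay above 0 there, with a median of -0.65. Of these markers 0 were called and 3 were lower at an unadjusted p below 0.05, against 637 of all 10051 genes. The part of the motor neuron markers in the list's shift was not tested. Sec11c, a catalytic subunit of the signal peptidase, was higher in G93A animals at 60 days, with 889.7, 576.5 and 483.7 against 246.3, 133.1 and 92.3 in controls (2.12 ± 0.43, adjusted p = 0.0227). The call was lost without the intensity trend (adjusted p = 0.150), with hybridization controls as a covariate (1.32, adjusted p = 0.598), with the Gapdh ratio in the model (1.82, adjusted p = 0.199), and without G93A animal 1 or 2 or control animal 2 or 3 of that age, at 1.87, 2.18, 2.06 and 1.80. At 120 days Sec11c differed by -1.10 ± 0.43 (adjusted p = 0.304), with 238.8, 487.1 and 503.9 in G93A animals against 1808, 620.4 and 512.6 in controls. Another subunit, Spcs3, differed by 2.87 ± 0.76 at 60 days (adjusted p = 0.0802), from a control signal of 4.1 to 11.3 that lay below the array median. Derl1, which forms part of the channel for retrotranslocation, read 1882.9, 2918.7 and 1603.7 in G93A animals at 60 days against 993.6, 1217 and 592.4 in controls (1.21 ± 0.31, adjusted p = 0.0708), and 1 of its 3 other tested probe sets had the opposite sign. In controls Sec11c, Spcs3 and Derl1 also rose between 60 and 120 days, by more than these genotype differences, as given below. Both comparisons share the 60-day controls, whose signals were low.

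Genes of oxidative folding and the lectin cycle had 34 tested members, of which 21, 20 and 15 lay above 0 at 60, 90 and 120 days, with medians of 0.24, 0.08 and -0.03. At 60 days P4hb, the founding disulfide isomerase, differed by 0.99 ± 0.36 (adjusted p = 0.216) and the transmembrane isomerase Tmx1 by 0.96 ± 0.34 (adjusted p = 0.201), both without overlap. At 120 days the related Tmx2 read 654.8, 526.8 and 1127.7 in G93A animals against 2939.7, 2101.2 and 1253.3 in controls (-1.44 ± 0.37, adjusted p = 0.126). Rcn2, a calcium-binding protein of the ER, differed by 1.34 ± 0.45 at 60 days (adjusted p = 0.173) and by -1.39 ± 0.45 at 120 days (adjusted p = 0.211), without overlap at either age. In controls P4hb, Tmx1 and Rcn2 also rose between 60 and 120 days, by more than their genotype differences at 60 days, as given below. ER associated degradation had 28 tested genes, of which 18, 13 and 11 lay above 0, with medians of 0.28, -0.04 (0.11 after centring) and -0.52. Herpud2, the paralog of Herpud1, read 2.3, 36.4 and 4.1 in G93A animals at 120 days against 79.7, 70.6 and 32.4 in controls (-3.02 ± 0.81, adjusted p = 0.133), and 1 of its 2 other tested probe sets had the opposite sign.

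**Figure D4:**
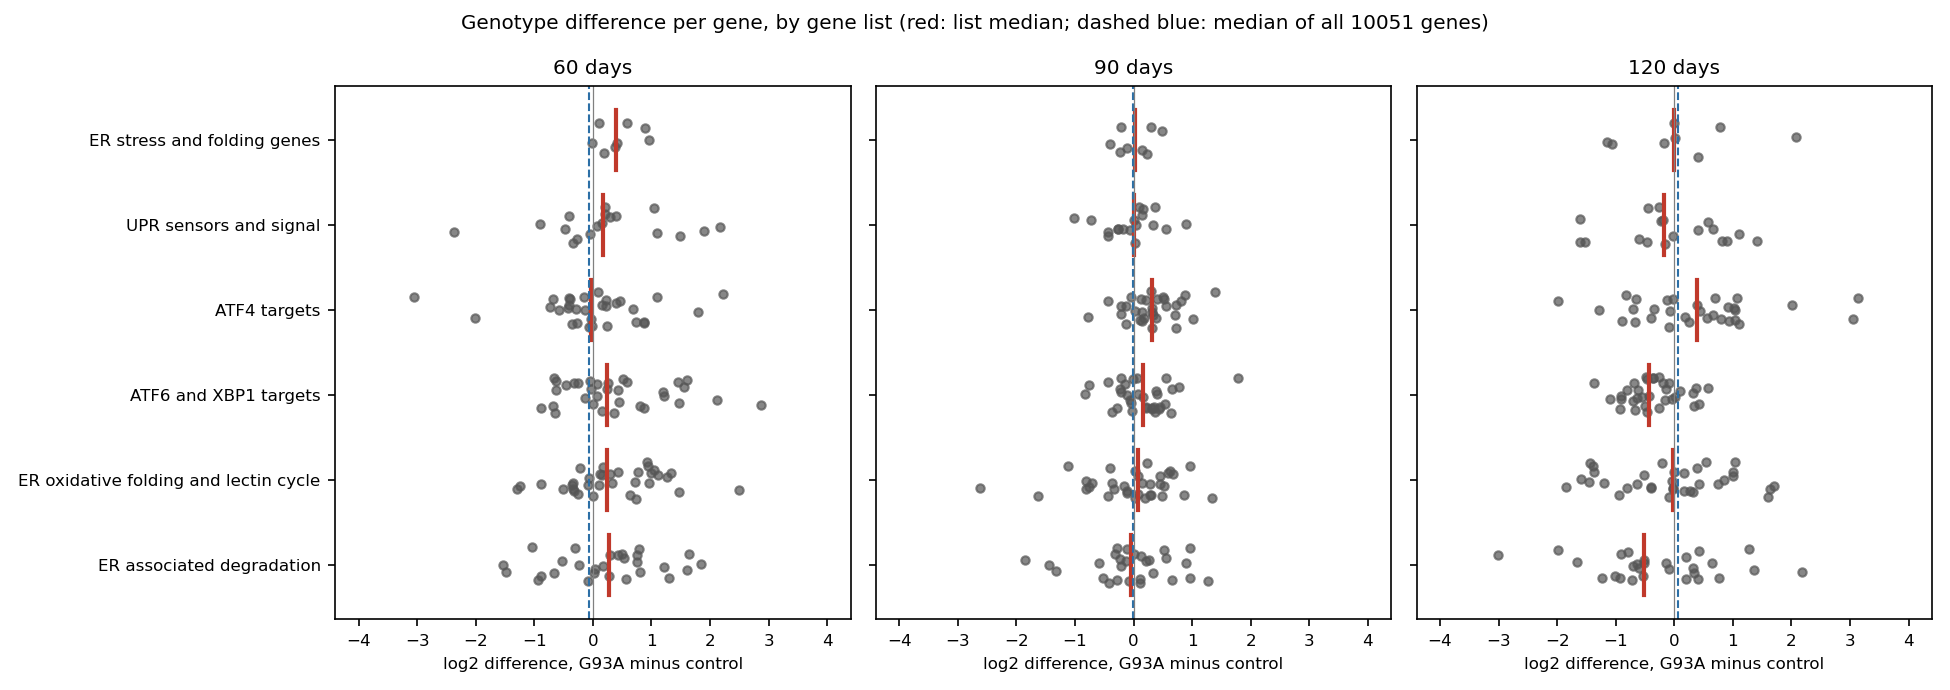
Log2 difference, G93A minus control, of each tested gene (points) in the 8 ER stress and folding genes and the 5 pathway lists at 60, 90 and 120 days, with list medians (red) and the median of all 10051 genes (dashed blue). The medians of the ATF6 and XBP1 targets and of ER associated degradation lie above that of all genes at 60 days, at 0.24 and 0.28, and below it at 120 days, at -0.44 and -0.52.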

How the data were processed

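Each array has 1 deposited signal intensity per probe set, linear, from MAS5 according to the submitters' processing notes, which give no version or settings here. A trimmed mean of about 100 on every array shows that each was scaled. Detection calls were not used here. Values under 1 were raised to 1 before taking log2 (965 of 408420 values, 0.236%), with no further normalization. Probe sets above their array's median on at least 3 of 18 arrays were tested, controls left out. Differences were fitted with limma 3.58.1 in R 4.3.3 as 6 group means over the 18 arrays, moderated by empirical Bayes along an intensity trend (12 residual degrees of freedom, two-sided, Benjamini-Hochberg adjustment over 16565 probe sets). The number of arrays limits the precision, and the samples are separate animals. The fit was also run on simulated data with independent noise and no effects shared by an array, so that run checks the calculation only.

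Groups came from the sample titles. The members and the gene lists were chosen with earlier results of these data known. Genes are named from probe sets with 1 symbol (20380; 691 carry several and 1555 none), and the Entrez identifiers of all 23 member probe sets matched the GRCm38.p6 RefSeq table. A gene is represented by its brightest tested probe set, those marked _x_at only where no other was tested. All members are named, and of each list up to 4 genes of smallest p per genotype comparison and each gene past the threshold were eligible. Promoter sequences are those of RefSeq on GRCm38.p6, found for 10 of 10 members. Alternatives were a pseudocount of 16, quantile normalization, median centring, no filter or at least 9 arrays, no trend, hybridization controls or the Gapdh ratio as covariate, array weights, a fit of 1 age, a replicate block, the mean of a gene's probe sets, and leaving out each array. The single contrast for Canx, and the alternatives for the called age differences of members and for Sec11c, were added after the data had been seen.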

Additional observations from a re-analysis of the deposited data

Results flagged for a closer look

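Canx probe set 1415692_s_at passed the threshold in a contrast of its genotype difference between 2 ages, which was added after its opposite signs had been seen, so that its p gives no independent support. The log2 difference, G93A minus control, was -1.07 at 120 days and 0.89 at 60 days, and the contrast of the first minus the second was -1.95 ± 0.48 (limma, adjusted p = 0.0358). Every G93A animal lay below every control at 120 days and above every control at 60 days. The F test over all 3 ages did not call it (adjusted p = 0.108), the mean of the 3 Canx probe sets gave -0.28, and over its alternatives the contrast ran from -2.50 to -0.28. It passed the threshold in 15 of 28 alternatives, among them 9 of the 18 that leave out 1 array. Outlying samples within a group were not tested, since each group held 3 animals.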

How the results depend on the processing

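Over 42 single values and 1232 alternative fits, 1089 kept direction and side of the threshold, 69 missed the threshold and 74 changed sign, 73 of these among genotype values, none of them called; the cause was not tested. The 0 member calls in each of the 4 genotype comparisons held in every alternative, the replicate block included, which called 0 of 17 in each. Replicate numbers come from the titles, and of 9 same-numbered pairs of arrays 0 correlated above 0.1 in their deviations from the group means (-0.116 to 0.058), so the numbers were not treated as pairs. Of the 4 calls between 120 and 90 days in G93A animals, 1 was left without the trend, 1 with hybridization controls and 2 with the Gapdh ratio in the model, and 0 to 6 were made without 1 array. Between 120 and 60 days in G93A animals 0 were called without the trend and 0 with the Gapdh ratio, and 0 to 1 without 1 array. In controls, between 120 and 90 days 2 were called with arrays centred on the median, 0 without the trend and 2 with hybridization controls, and 0 to 2 without 1 array; between 120 and 60 days 1 without the trend and 1 with the Gapdh ratio, and 1 to 3 without 1 array; and between 90 and 60 days 0 to 1 without 1 array, the 1 without control animal 3 of 90 days. The F test called 1 member, Canx, after median centring (adjusted p = 0.047). Sign changes after median centring were Atf4 at 90 days (0.05), Calr at 60 days (0.21) and over the ages (0.02), Canx over the ages (0.01) and Herpud1 at 120 days (-0.30). After quantile normalization they were Xbp1 at 120 days (0.18), Herpud1 at 120 days (-0.08), and Hspa5 (0.04), Calr (0.01) and Canx (0.00) over the ages. With hybridization controls in the model they were Atf4 at 90 days (0.16), Hspa5 at 60 days (-0.31), Canx at 90 days (-0.11) and Herpud1 over the ages (-0.05). With the Gapdh ratio they were Atf4 at 90 days (0.58) and 120 days (0.10), Hspa5 at 90 days (-0.13), Canx at 90 days (-0.35), Herpud1 at 120 days (-0.05) and over the ages (-0.04), and Hsp90b1 over the ages (-0.02). With array weights they were Canx at 90 days (0.00), Herpud1 at 120 days (-0.04) and over the ages (-0.01), and Hspa5 (0.05) and Calr (0.00) over the ages. As the mean of probe sets they were Xbp1 at 120 days (0.07), Canx at 90 days (-0.07) and Canx between 120 and 60 days in controls (-0.04). Without 1 array the range spanned 0 for Atf4 at 90 days (-0.42 to 0.17) and 120 days (-0.38 to 0.12), Ddit3 at 60 days (-0.50 to 1.13), Xbp1 at 120 days (-0.55 to 0.36), Calr at 60 days (-0.10 to 0.08), Canx at 90 days (-0.17 to 0.43), and Herpud1 at 90 days (-0.53 to 0.04) and 120 days (-0.35 to 0.24). Over the ages it did so for Xbp1 (-0.05 to 0.25), Hspa5 (-0.32 to 0.34), Calr (-0.05 to 0.05), Canx (-0.12 to 0.08) and Herpud1 (-0.05 to 0.16). Depth is not defined for arrays; the dim probe sets of Pdia3 and Pdia4 allowed no test.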

Other observations

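In controls, of the 33 tested ATF6 and XBP1 targets 6 rose between 120 and 60 days and 0 fell. Of all 10051 genes 391 were called higher and 284 lower there, 6.72% in either direction. The 6 were Sec11c (2.52 ± 0.43), Spcs3 (4.26 ± 0.76), Derl1 (1.26 ± 0.31), the translocon subunit Sec61a1 (1.17 ± 0.32), Creld2 (3.27 ± 0.94) and the ER calcium pump Atp2a2 (1.20 ± 0.36), with adjusted p of 0.00128 to 0.044. Over the whole list 18 of 33 lay above 0, with a median of 0.22, against 41.7% and -0.22 for all genes. Of the 9 oligodendrocyte markers 8 lay above 0 in the same comparison, with a median of 1.03 and 2 called, a summed signal of 15024.4 to 22896.5 at 120 days against 5423 to 8220 at 60 days, and their part in these changes was not tested. Other probe sets of Derl1, Sec61a1 and Atp2a2 had the opposite sign. Between 90 and 60 days in controls Sec11c (2.33 ± 0.43), Derl1 (1.38 ± 0.31) and the cochaperone Dnajb9 (1.88 ± 0.47) rose, where 132 of 10051 genes were called higher and 21 lower. Among the folding genes Tmx1 (1.68 ± 0.34), P4hb (1.55 ± 0.36) and Rcn2 (1.76 ± 0.45) rose between 120 and 60 days in controls. Calls in controls went down as well. Between 120 and 60 days 1 ATF4 target was lower and 0 higher, and 1 sensor or signal gene was lower and 1 higher, with 2 degradation genes higher. Between 90 and 60 days 1 degradation gene was lower and 2 higher. Between 120 and 90 days 1 sensor or signal gene was lower, with 1 ATF4 target and 1 folding gene higher. Of all 10051 genes 53 were called higher and 37 lower between those ages.

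In G93A animals most calls of the lists lay between 120 and 90 days, where 7.6% of all genes were called. Between 120 and 60 days Sec61a1 (1.31 ± 0.32) and Slc3a2 (1.31 ± 0.35) rose and Herpud2 (-4.14 ± 0.81) fell, where 83 of 10051 genes were called higher and 106 lower. Between 120 and 90 days the calls were as follows. Sec61a1 rose (1.96 ± 0.32), and Spcs2 (-1.53 ± 0.34), Ssr1 (-1.77 ± 0.48) and Dnajb9 (-1.72 ± 0.47) fell. Of the ER associated degradation genes Os9 (1.62 ± 0.32) and Ubxn4 (0.92 ± 0.26) rose, and Herpud2 (-3.92 ± 0.81), Ube2g1 (-1.45 ± 0.34) and Ubqln2 (-2.27 ± 0.55) fell. Among ATF4 targets the serine synthesis gene Phgdh (2.69 ± 0.53), Slc3a2 (1.24 ± 0.35) and Shmt2 (1.49 ± 0.45) rose and the glycyl-tRNA synthetase gene Gars (-1.12 ± 0.30) fell. Among the folding genes Txndc11 (4.31 ± 1.04) and the BiP exchange factor Sil1 (1.34 ± 0.41) rose, and Tmx2 (-1.49 ± 0.37), the disulfide oxidase Ero1a (-1.38 ± 0.39) and Prdx4 (-1.71 ± 0.48) fell. Of the sensor and signal genes Creb3 (-1.10 ± 0.30) fell. Phgdh also rose between those ages in controls (2.38 ± 0.53, adjusted p = 0.0269). Probe sets of opposite sign existed for Creb3, Sec61a1, Spcs2, Ssr1, Ubxn4, Herpud2, Phgdh and Shmt2.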
